A study of Homo sapiens with 4 samples.

Results

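The 49 genes described here encode the proteins that license replication origins, unwind and copy the DNA at the fork, join the copied fragments and supply deoxynucleotides. They were taken by name from a table of 61541 gene IDs, and all 49 were found in it. The table came from MHCC97H, an established human hepatocellular carcinoma (HCC) line, and held 2 control libraries (shCon) and 2 UBXN1-knockdown libraries (shUBXN1), with no time point or dose in the labels. UBXN1 is a UBX-domain protein that binds ubiquitin and works as a cofactor of the ATPase VCP. The question was how the RNA of the replication genes differed between the knockdown and its control, and whether licensing, helicase, polymerase and nucleotide supply genes differed to a like extent.

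By the study's methods the short hairpin RNA was carried by a lentiviral pLKO.1 vector, and both groups were of the same line and received such a vector. The control hairpin is called shCon in the labels and shRFP in the methods. The supplement lists several human UBXN1 hairpins, and which was used for the sequenced cells is not named. The knockdown thus stands on 1 line, and the sources do not say whether on a single hairpin or more. The labels do not say whether replicates were separate cultures, so the spread between these libraries may be technical. Every p-value rests on that spread, which the test moderates toward a trend over all genes.

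Replication origins are licensed in G1, when the origin recognition complex (ORC), CDC6 and CDT1 load the MCM helicase onto DNA in an inactive form. In S phase the kinase CDC7 with DBF4, and MCM10, CDC45 and the GINS complex, turn it into a moving helicase, and DNA polymerases, the clamp PCNA and its loader RFC follow behind. Many of these genes are known targets of the E2F transcription factors and are transcribed mainly in late G1 and S phase, so that their RNA in a culture depends on how many cells are cycling. In bulk RNA, fewer cells in S phase and less RNA per cell cannot be told apart, and no cell-cycle profile was analysed here.

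Promoter sequence was read because E2F sites are a known shared feature of this pathway. In the RefSeq promoter table (GRCh38.p14), which gives 250 bases before to 50 bases after each annotated start, 43 of the 49 genes had a window. MCM4, MCM5, GINS4, POLD3, RPA2 and RPA3 had none. The full E2F letter strings, TTTCCCGC; TTTCGCGC; TTTGCCGC; TTTGGCGC, were searched on both strands. The 8 genes below had the largest falls among those with a match. Each line gives 30 bases in the direction of the gene, with the E2F match nearest the start in capitals. In the line of MCM6 another match, TTTGGCGC, overlaps the marked one and is only partly in capitals.
GINS2: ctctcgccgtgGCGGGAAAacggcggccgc
POLA2: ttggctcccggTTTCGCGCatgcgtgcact
CDT1: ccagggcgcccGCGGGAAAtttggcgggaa
ORC3: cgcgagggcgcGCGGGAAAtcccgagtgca
RFC3: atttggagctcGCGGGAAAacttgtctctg
MCM6: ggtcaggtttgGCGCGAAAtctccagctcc
POLA1: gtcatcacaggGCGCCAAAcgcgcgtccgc
GINS1: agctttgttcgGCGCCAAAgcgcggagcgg

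These windows lie in GRCh38.p14 at chr16:85688967-85688996 (minus strand) for GINS2, chr11:65261898-65261927 for POLA2, chr16:88803743-88803772 for CDT1 and chr6:87590112-87590141 for ORC3. Those of RFC3, MCM6, POLA1 and GINS1 lie at chr13:33818083-33818112, chr2:135876511-135876540 (minus strand), chrX:24693770-24693799 and chr20:25407667-25407696. The first capital stood from 137 bases before the start, in POLA1, to base 6 after it, in GINS1. The window of MCM6 held 4 matches in all.

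E2F letters were present in 20 of the 43 genes with a window (46.5%), against 740 of 11671 tested genes with a window (6.34%). Counted by window, the share was 36.4% of 55 windows of the replication genes and 4.70% of all 16804 windows of this length. CCAAT, the letters bound by NF-Y, was present in 58.1% of the 43 genes and 42.4% of the tested genes. The CHR element of cell-cycle promoters, searched as TTTGAA or as TTCGAA, was present in 6.98% and 15.7%. In 1 window of a replication gene, matches of different motifs overlapped. A match is a description of letters, not of a bound site, and no test was made.

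UBXN1 (ENSG00000162191, chr11:62676498-62679117 on the minus strand in GENCODE 44) was measured first as a check on the labels. It stood at 67.1 and 77.3 CPM (counts scaled to library size, with factors from TMM, the trimmed mean of M-values) in shCon and at 16.8 and 18.5 CPM in shUBXN1. The groups did not overlap, and the log2 fold change was -2.03 ± 0.0963 (standard error (SE), adjusted p = 9.98e-10). Total counts were 23373700 to 27380508 per library. Of 16863 genes tested, 28.2% were lower and 28.0% higher in shUBXN1 at an adjusted p under 0.05, with a median over all of them of 0.016 on the log2 scale, so a call alone is common in these data. Mitochondrially encoded genes took 5.28% and 5.59% of the counts in shCon and 7.43% and 8.27% in shUBXN1, and the part of this share in the results was not tested. Of the liver markers, KRT8, KRT18 and HNF4A were detected, ALB stood at 18.0 and 17.2 CPM in shCon and 4.2 and 4.78 CPM in shUBXN1, while APOA2 and GPC3 were at or near 0. The 15 liver and HCC-line markers summed to 4718 and 4882 CPM in shCon and 3589 and 4196 CPM in shUBXN1, most of it KRT8 and KRT18, with 8 lower and 2 higher.

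Markers of other cell types were read as well. Of 7 fibroblast markers LUM alone was above 1 CPM in every library, and the list summed to 33.3 and 33.8 CPM in shCon and 17.3 and 19.8 CPM in shUBXN1, most of it LUM. LUM and DCN were lower, while COL1A1 was higher, at 0.375 and 0.170 CPM and then 2.34 and 2.52 CPM (3.11 ± 0.468, adjusted p = 5.83e-05). COL1A2, COL3A1, PDGFRB and PDGFRA were at or near 0. Of 6 leukocyte markers CD68 alone was above 1 CPM in every library, with sums of 84.0 and 89.6 CPM and then 73.9 and 71.5 CPM; 2, CD68 and LYZ, were lower and 0 higher, and PTPRC and CD3E were at or near 0. Of 4 endothelial markers PECAM1 and KDR were above 1 CPM in every library and both were higher, with sums of 48.4 and 49.9 CPM and then 92.6 and 99.5 CPM, and CDH5 was at or near 0. The part of these markers in the results on replication genes was not tested.

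Of the 49 replication genes, 43 were lower in shUBXN1 and 0 were higher at an adjusted p under 0.05, where 28.2% of all genes tested were lower. ORC2, ORC4, POLD1, RFC1, RPA1 and TIMELESS were not called. The median log2 fold change was -0.72, which left a median of 60.9% of the shCon level, and 48 of the 49 values were below 0 where 49% of all genes tested were. In 47 genes both shUBXN1 libraries lay below both shCon libraries in CPM, against 38.6% of all genes. By the thresholds of the study's methods, a fold change of 2 with p under 0.05 before adjustment, 9 were lower, RFC2, PRIM1, CDC45, GINS2, MCM10, POLA2, RRM2, CDT1 and MCM5, against 6.09% of all genes. The list thus moved mostly one way, by amounts that were mostly less than a fold change of 2.

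**Figure D1:**
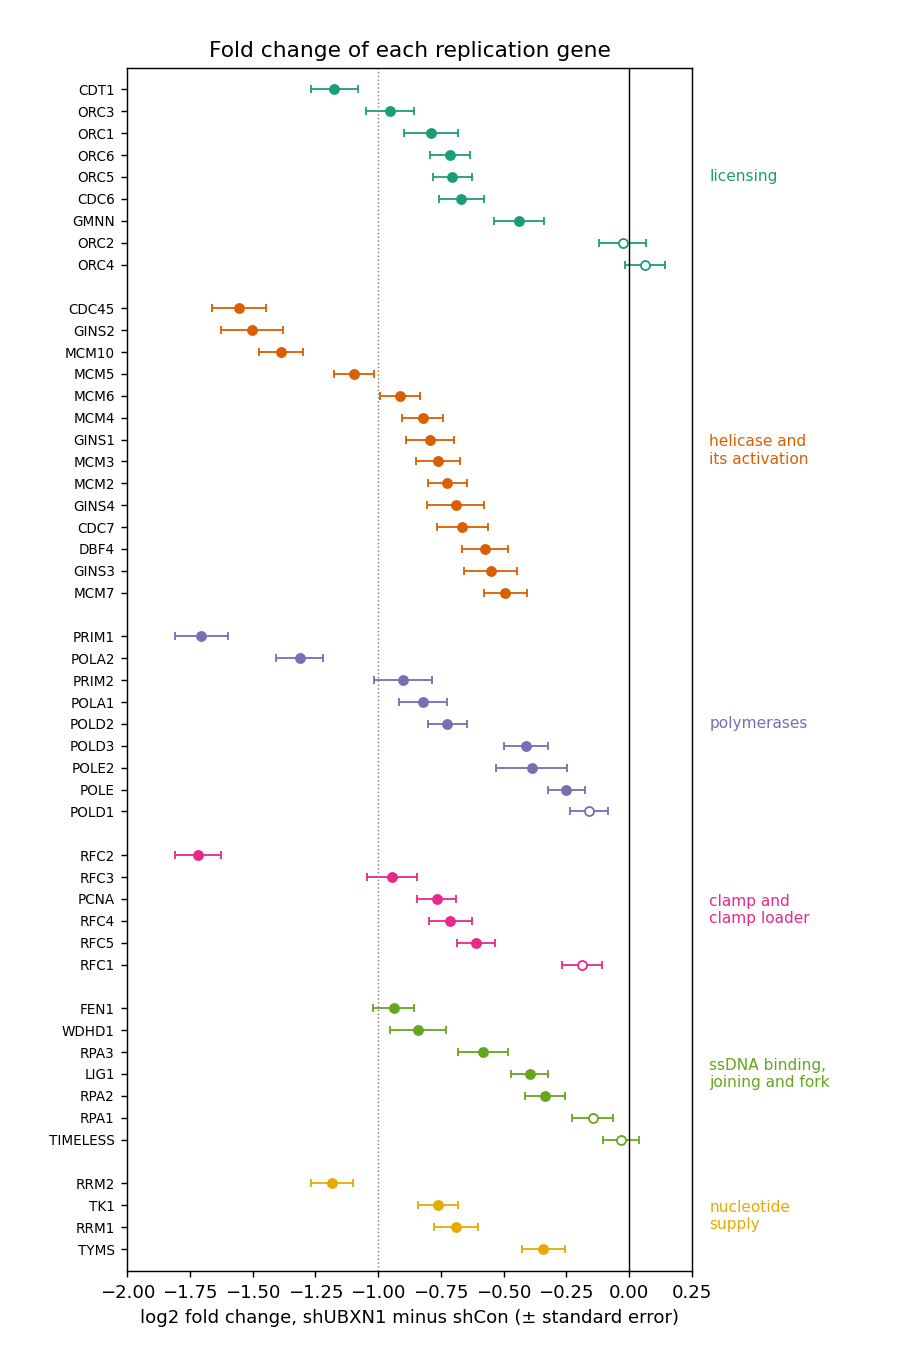
Log2 fold change (shUBXN1 minus shCon, x axis) of each of the 49 replication genes, grouped by role, with the standard error as bars, filled points for an adjusted p under 0.05, open points for the others and a dotted line at a fold change of 2. Values run from -1.72 for RFC2 to 0.06 for ORC4, and 43 points are filled.

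**Figure D2:**
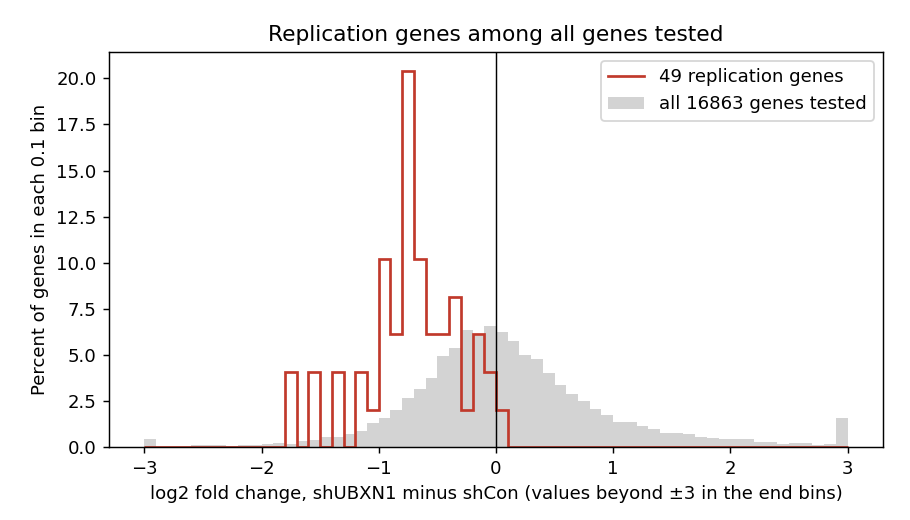
Percent of genes in each bin of log2 fold change, for all 16863 genes tested (grey) and the 49 replication genes (red line). The median is 0.016 in grey and -0.72 in red.

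The licensing genes are the 6 ORC subunits, CDC6, CDT1 and geminin (GMNN), the protein that holds CDT1 inactive outside G1. Of these 9, 7 were lower, 0 higher and 2 not called, with a median log2 fold change of -0.70. CDT1 stood at 45.9 and 50.6 CPM in shCon and at 20.2 and 22.5 CPM in shUBXN1, so that each knockdown library held less than either control. Its log2 fold change was -1.17 ± 0.0935 (adjusted p = 1.2e-07). GMNN fell less, from 34.6 and 33.4 CPM to 23.1 and 27.1 CPM (-0.44 ± 0.0985, adjusted p = 0.00166).

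The ORC subunits did not fall alike. ORC3 stood at 38.5 and 40.2 CPM in shCon and 19.1 and 21.6 CPM in shUBXN1 (-0.95 ± 0.0950, adjusted p = 1.12e-06). ORC1, a subunit whose protein level changes over the cell cycle, stood at 45.9 and 40.5 CPM and then 22.4 and 27.6 CPM (-0.79 ± 0.107, adjusted p = 2.21e-05). ORC5 (-0.70), ORC6 (-0.72) and CDC6, the loading ATPase (-0.67), were lower too. ORC2 stood at 28.6 and 28.9 CPM in shCon and 26.7 and 29.9 CPM in shUBXN1, and ORC4 at 43.9 and 42.4 CPM and then 46.9 and 43.4 CPM. In both the groups overlapped. The 95% interval of the log2 fold change was -0.23 to 0.18 for ORC2 (adjusted p = 0.843), whose sign turned with scaling to the total count (0.06), and -0.11 to 0.24 for ORC4 (adjusted p = 0.523).

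The helicase genes are MCM2 to MCM7, which form the ring, MCM10 and CDC45, the 4 GINS subunits, and the kinase CDC7 with its activator DBF4. All 14 were lower, with a median of -0.78 and a range of -1.55 to -0.49. The 3 largest falls were in factors that join the ring when it is activated. CDC45 stood at 39.8 and 39.8 CPM in shCon and 12.1 and 15 CPM in shUBXN1 (-1.55 ± 0.110, adjusted p = 3.84e-08). GINS2 stood at 31.0 and 34.9 CPM and then 10.2 and 13 CPM (-1.5 ± 0.123, adjusted p = 1.62e-07). MCM10 stood at 52.5 and 56.0 CPM and then 20.1 and 21.4 CPM (-1.39 ± 0.0873, adjusted p = 1.3e-08). In none of these did the groups overlap.

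Within the ring the falls were -1.10 for MCM5, -0.91 for MCM6, -0.82 for MCM4, -0.76 for MCM3, -0.72 for MCM2 and -0.49 for MCM7. MCM7 was the most abundant of the 49 genes per length, at a mean of 580 TPM (a level that takes gene length into account) in shCon and 429 TPM in shUBXN1. MCM5 stood at a mean of 123 TPM and then 59.8 TPM. The order of the mean levels was MCM7, MCM4, MCM2, MCM5, MCM3 and MCM6 in shCon, and in shUBXN1 MCM3 stood above MCM5. Summed over the ring, 64.8% of the shCon TPM was left. TPM carries no TMM factor, so shares of TPM are not on the scale of the CPM values and fold changes. The other GINS subunits, GINS1 (-0.79), GINS4 (-0.69) and GINS3 (-0.55), fell by smaller fitted values than GINS2, and 59.4% of the summed GINS level was left. CDC7 (-0.66) and DBF4 (-0.57) were lower too.

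**Figure D3:**
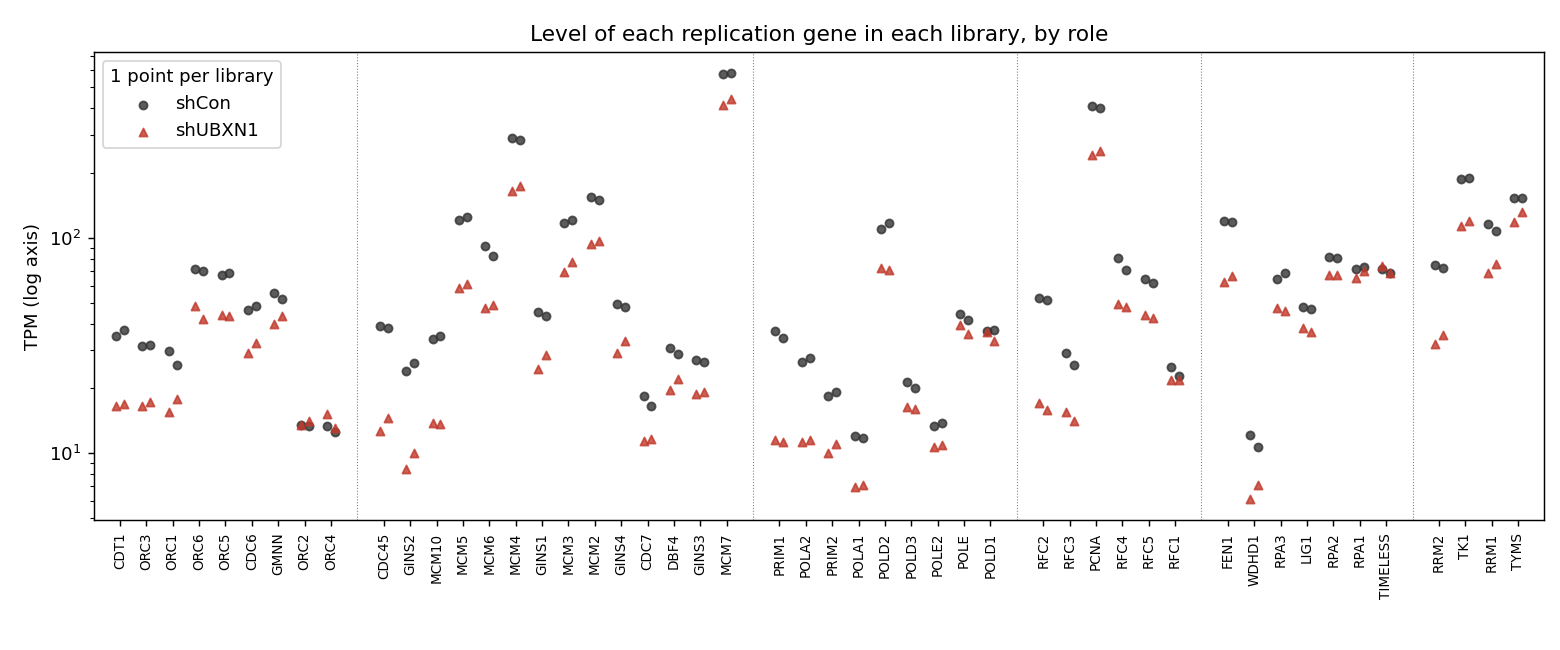
TPM on a log axis of each of the 49 replication genes in each library, in the order of role and fold change, with circles for shCon and triangles for shUBXN1. In 46 genes both knockdown values of TPM lie below both control values, and ORC2, ORC4 and TIMELESS are the exceptions on this scale.

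The polymerase genes are those of DNA polymerase alpha with its primase, which lays down the starting RNA-DNA primer, and of polymerases delta and epsilon, which extend the lagging and leading strands. Of these 9, 8 were lower and POLD1 was not called, with a median of -0.73. PRIM1, the catalytic primase subunit, stood at 34.1 and 32.5 CPM in shCon and 9.98 and 10.5 CPM in shUBXN1, or 30.7% of the control mean. The log2 fold change was -1.71 ± 0.105 (adjusted p = 1.02e-08). POLA2, the accessory subunit of polymerase alpha, stood at 46.2 and 49.9 CPM and then 18.5 and 20.2 CPM (-1.31 ± 0.0921, adjusted p = 3.63e-08). PRIM2, the partner of PRIM1, stood at 23.3 and 24.8 CPM and then 11.8 and 14 CPM (-0.90 ± 0.116, adjusted p = 1.4e-05). With the catalytic subunit POLA1 (-0.82), all 4 genes of this complex were lower and 43.1% of its summed TPM was left.

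For polymerase delta 71.5% of the summed TPM of POLD1, POLD2 and POLD3 was left, and for polymerase epsilon 85.8% of that of POLE and POLE2. With the small subunits from the list of further genes, POLD4 (-1.06), POLE3 (-0.21) and POLE4 (-0.28), the shares were 66.6% and 88.2%. POLD2, a small subunit of delta, fell by 0.73 on the log2 scale and POLD3 by 0.41. The catalytic subunit POLD1 stood at 64.0 and 66.5 CPM in shCon and 59.0 and 57.8 CPM in shUBXN1 (-0.16, 95% interval -0.32 to 0.00, adjusted p = 0.083), and it passed with the trend on GC content removed (-0.34, adjusted p = 0.00123). The catalytic subunit POLE (-0.25, adjusted p = 0.00878) and POLE2 (-0.39, adjusted p = 0.0287) were lower, but both calls were lost without shCon replicate 1 (adjusted p = 0.142 and 0.0714) or shCon replicate 2 (0.0744 and 0.171). The call of POLE was also lost with limma on log2(TPM + 1) (adjusted p = 0.0820) and log2(TPM + 0.1) (0.0812). The call of POLE2 was also lost without shUBXN1 replicate 1 (adjusted p = 0.0790), in DESeq2 (0.115) and with scaling to the total count (0.0762). Whether the complexes differed from each other was not tested.

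PCNA is the ring that tethers the polymerases, and the 5 RFC subunits load it. Of these 6 genes 5 were lower, with a median of -0.74. RFC2 stood at 43.5 and 43.9 CPM in shCon and 13.3 and 13.2 CPM in shUBXN1. It had the lowest value of the 49 genes (-1.72 ± 0.0933, adjusted p = 3.23e-09), with 30.4% left. RFC3 stood at 33.0 and 29.8 CPM and then 16.5 and 16.1 CPM (-0.94 ± 0.10, adjusted p = 2.16e-06). PCNA, at 258 and 260 CPM and then 143 and 161 CPM, was lower by a smaller fitted amount (-0.77 ± 0.0786, adjusted p = 1.47e-06). RFC4 (-0.71) and RFC5 (-0.61) were lower as well. The large subunit RFC1 stood at 60.3 and 56.3 CPM and then 49.4 and 53.1 CPM, without overlap but short of the threshold (-0.19, 95% interval -0.36 to -0.02, adjusted p = 0.0594), and it passed without shUBXN1 replicate 2 (-0.24, adjusted p = 0.0137).

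Single-strand binding, fragment joining and fork genes had the median nearest 0, at -0.39, with 5 of 7 lower. FEN1, the flap nuclease that trims Okazaki fragments, stood at 118 and 120 CPM in shCon and 57.9 and 66.8 CPM in shUBXN1 (-0.94 ± 0.0815, adjusted p = 2.98e-07). WDHD1, which links polymerase alpha to the helicase, stood at 36.0 and 32.6 CPM and then 17.1 and 21.3 CPM (-0.84 ± 0.112, adjusted p = 1.94e-05). RPA3, the small subunit of the single-strand binding complex, stood at 26.8 and 29.5 CPM and then 18.4 and 19.2 CPM (-0.58 ± 0.10, adjusted p = 0.000192). LIG1, the ligase that seals the fragments (-0.39), and RPA2 (-0.33) were also lower. RPA1, the large subunit, stood at 170 and 179 CPM and then 146 and 169 CPM (-0.14, 95% interval -0.32 to 0.03, adjusted p = 0.151), and passed without shUBXN1 replicate 2 (-0.25, adjusted p = 0.00147). TIMELESS, of the fork protection complex, stood at 181 and 180 CPM and then 176 and 177 CPM (95% interval -0.18 to 0.12, adjusted p = 0.729), and its sign turned with scaling to the total count (0.05).

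All 4 nucleotide supply genes were lower, with a median of -0.73. RRM2, the small and cell-cycle-regulated subunit of ribonucleotide reductase, stood at 135 and 134 CPM in shCon and 54.3 and 64.3 CPM in shUBXN1 (-1.18 ± 0.0850, adjusted p = 4.6e-08). TK1, the cytosolic thymidine kinase, stood at 156 and 162 CPM and then 87.6 and 99.7 CPM (-0.76 ± 0.0798, adjusted p = 1.85e-06). The large subunit RRM1 stood at 180 and 172 CPM and then 99.6 and 119 CPM (-0.69 ± 0.0861, adjusted p = 1.02e-05). TYMS, which makes thymidylate, fell least of the 4 (-0.34 ± 0.0855, adjusted p = 0.00363). By summed TPM the roles kept 66.0% (licensing), 63.2% (helicase), 65.7% (polymerases), 60.6% (clamp and loader), 77.3% (single-strand binding, joining and fork) and 65.8% (nucleotide supply). The range of log2 fold changes within each role was wider than the gaps between the roles' medians, and the roles were not tested against each other.

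Partners differed in their fitted fold changes, and the ratio of their levels moved with them. The pairs were not set in the plan. Each ratio restates the levels of its genes and is no separate result. On the TPM scale RFC2 stood at 2.09 and 2.26 times RFC1 in the shCon libraries and at 0.783 and 0.723 times in the shUBXN1 libraries. The ratio PRIM1 to PRIM2 was 2.0 and 1.79 and then 1.16 and 1.02. Both ratios were lower in each knockdown library than in either control. CDT1 per GMNN, the licensing factor against its inhibitor, was 0.629 and 0.719 and then 0.416 and 0.393. RRM2 per RRM1 was 0.642 and 0.669 and then 0.467 and 0.464. Thus CDT1 and RRM2 were lower relative to their partners as well as in level. MCM7 moved the other way, from 6.32 and 7.06 to 8.79 and 9.05 per MCM6 and from 4.78 and 4.66 to 7.08 and 7.27 per MCM5. POLA2 per POLA1 (2.20 and 2.36, then 1.62 and 1.62), POLD2 per POLD1 (2.96 and 3.13, then 1.98 and 2.14) and ORC5 per ORC4 (5.03 and 5.52, then 2.89 and 3.32) were lower in shUBXN1. With 2 libraries against 2, an exact two-sided permutation test cannot give a p below 0.333, so these ratios are descriptions. Ratios of RNA do not show the make-up of the protein complexes.

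**Figure D4:**
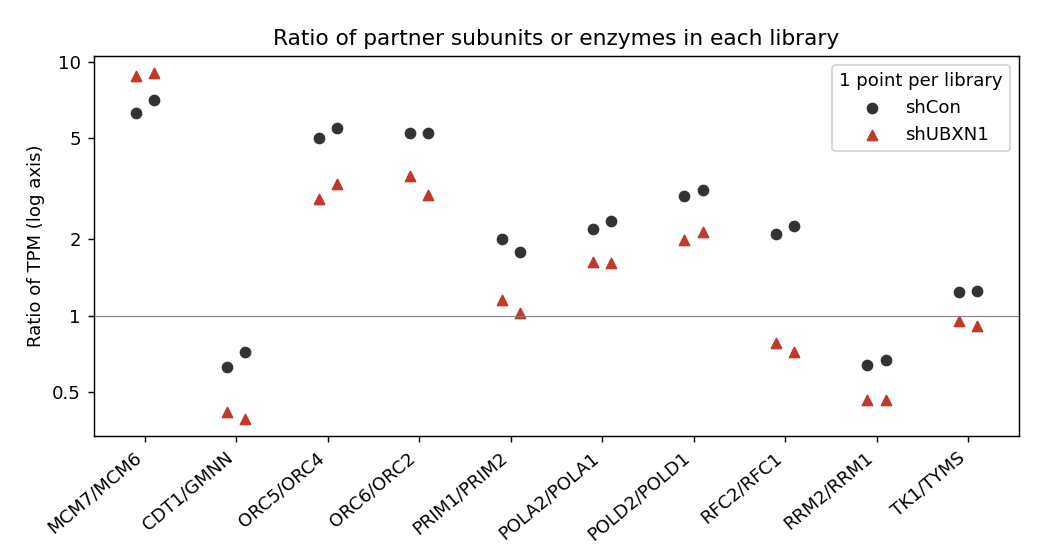
Ratio of TPM of partner genes (log axis) in each library, circles for shCon and triangles for shUBXN1, with a line at 1. RFC2 per RFC1 goes from 2.09 and 2.26 to 0.783 and 0.723. Of the 10 ratios plotted MCM7 per MCM6 is the one that is higher in shUBXN1. MCM7 per MCM5, which is not plotted, is higher too. The direction of a ratio depends on which gene is the numerator.

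Set beside the promoter letters shown above, all 20 genes with E2F letters were lower, and so were 17 of the 23 without. The 6 genes that were not called all had a window and no such letters. The medians were nearly the same, -0.74 with and -0.72 without, and RFC2, PRIM1 and CDC45, the genes with the lowest values, had none of the 4 strings in their windows. With CCAAT 21 of 25 genes were lower, and without it 16 of 18, with medians of -0.76 and -0.71. With the CHR letters 3 of 3 were lower, and without them 34 of 40. None of these splits was tested. The absence of letters in a window says nothing of whether a factor binds the gene.

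**Figure D5:**
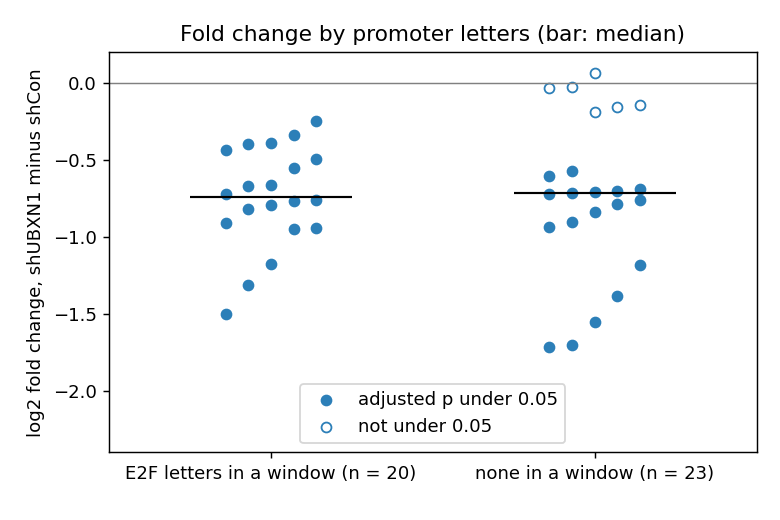
Log2 fold change (shUBXN1 minus shCon) of the 43 replication genes with a promoter window, by whether a window held E2F letters, with filled points for an adjusted p under 0.05 and a bar at the median. The medians are -0.74 and -0.72, and the 6 open points all lie in the group without the letters.

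A list of 50 further replication genes was read in the same fit. Of these, 37 (74%) were lower, 2 higher and 11 not called, with a median of -0.59. Among all genes tested 28.2% were lower and 28.0% higher. Of 12 initiation regulators 11 were lower. DONSON, needed for helicase assembly, stood at 28.4 and 29.1 CPM in shCon and 11.9 and 10.7 CPM in shUBXN1 (-1.35 ± 0.108, adjusted p = 1.29e-07). DTL, which targets CDT1 for destruction, was lower (-1.07 ± 0.0839, adjusted p = 1.05e-07), as were FBXO5 (-0.92), an inhibitor of the APC/C, TICRR (-0.85), which brings CDC45 to the origin, and RECQL4 (-0.37). LRWD1, an ORC-associated protein, was the exception and was named after its values were seen. It stood at 65.8 and 70.7 CPM and then 105 and 103 CPM (0.60 ± 0.0744, adjusted p = 9e-06).

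Of 17 further polymerase, clamp and fork genes 15 were lower (88.2%, against 28.2% of all genes tested). They included POLD4 (-1.06), a small subunit of polymerase delta, PCLAF (-1.02), which binds PCNA, RNASEH2C (-0.82), a subunit of the nuclease that removes ribonucleotides from DNA, and CLSPN (-0.63), which travels with the fork. Of 8 genes of chromatin assembly and methylation behind the fork 7 (87.5%) were lower, led by UHRF1 (-1.41), CHAF1A (-1.02) and DNMT1 (-0.72).

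Further nucleotide supply genes did otherwise, with a median of -0.04. Of 13, 4 were lower (30.8%, near the 28.2% of all genes tested) and 1 was higher. The 4 nucleotide supply genes described earlier thus do not stand for the whole of nucleotide metabolism. NME1 (-0.61) and DTYMK (-0.44) were lower. RRM2B, the RRM2 paralog that is induced by p53, stood at 56.8 and 52.8 CPM and then 65.7 and 67.4 CPM (0.28 ± 0.0767, adjusted p = 0.00629), a call that was lost without shCon replicate 2 (0.23, adjusted p = 0.131). DUT (-0.12, 95% interval -0.28 to 0.04) and SAMHD1 (0.05, 95% interval -0.14 to 0.25), which break down dUTP and dNTPs, were not called.

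Some values are less certain because exons overlap those of other genes and the strand setting of the counting is not given. In GENCODE 44, 47.9% of the exon bases of TYMS lie under antisense genes (ENOSF1 and TYMSOS), as do 23.6% of MCM2 and 23.4% of GINS4. Apart from these, 16.8% of POLA2 and 15.1% of PRIM1 are shared with genes on the same strand, which no strand setting would separate. Of 21 pseudogenes named after the 49 genes, none held more than 3 counts in a library. The 49 genes held between 207 counts (POLE2) and 18734 counts (MCM7) per library.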

How the data were processed

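RNA of 4 MHCC97H libraries was measured. The authors deposited a table of unnormalized expected counts with a length for each gene. The submitters' notes name GRCh37, HISAT2 2.0.4 and StringTie 1.3.0, whereas the methods name GRCh38. The counting tool, annotation release and strand setting are not given in the sources used here. Of 61541 gene IDs, 61369 (99.7%) were in GENCODE 44, which supplied symbols and coordinates (GRCh38, not read from the table).

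Expected counts were rounded, filtered (filterByExpr), TMM-scaled and tested by the quasi-likelihood method (glmQLFit, glmQLFTest) of edgeR 4.0.16 under R 4.3.3, with Benjamini-Hochberg adjustment over 16863 genes, no block and 2 residual degrees of freedom. The SE is the absolute log2 fold change over the square root of F. TPM was computed from unrounded counts and the table's length, without TMM factors. The script was tested on simulated data. Alternatives were DESeq2 1.42.0, limma 3.58.1, other scalings, filters, pseudocounts and GC correction, the replicate block, and leaving out each library.

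The members and lists were chosen with earlier results of these data known. All 49 members are named. Per role, the 3 with the largest change at an adjusted p under 0.05 are given in full; of each further list, the 3 largest and 8 fixed genes, except items that are not reported here. Promoter windows follow the largest falls with a full E2F string.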

Additional observations from a re-analysis of the deposited data

How the results depend on the processing

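Replication genes lower at an adjusted p under 0.05 numbered 43, and between 41 and 45 in the 15 alternatives, with 0 higher in each. Of 735 values of single genes, 711 kept their direction and their side of the threshold, 9 lost and 5 gained a call and 10 changed sign. With a fold change of 1.5 in place of 2, 32 replication genes were lower in place of 9. The replication genes' median of -0.72 became -0.63 with scaling to the total count, which moved the median of all genes to 0.10. It was -0.65 with limma on log2(TPM + 1). Leaving out 1 library gave -0.81 (without shUBXN1 replicate 2) to -0.65. Without shUBXN1 replicate 1 or 2, the helicase median was -0.65 or -0.91, and the nucleotide supply median -0.63 or -0.84. The polymerase median was -0.80 without shCon replicate 1 and -0.65 without shCon replicate 2. ORC2, which was not called, became 0.059 with scaling to the total count, 0.030 and 0.032 with limma on TPM with pseudocounts of 1 and 0.1, 0.0029 with at least 10 counts in every library, 0.027 with the GC trend removed and 0.025 with the replicate block as well, and ranged from -0.11 to 0.051 without 1 library. TIMELESS became 0.053, 0.027 and 0.027 under the first 3 of these, and SAMHD1 ranged from -0.0146 to 0.123 without 1 library. The cause was not tested. Same-numbered libraries' deviations from the group means correlated at r = 0.0393, which gave no sign of pairing by number but cannot exclude it. The replicate block called 44 replication genes, adding RFC1. UBXN1 kept its call throughout.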
